A study of Mus musculus with 12 samples.

Results

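Interleukin 4 (IL-4) and interleukin 10 (IL-10) are the classical signals that turn macrophages away from an inflammatory state, and 8 genes of their pathways were followed: Il10, its receptor genes Il10ra and Il10rb, the IL-4 and IL-13 receptor genes Il4ra and Il13ra1, the signal transducer Stat6, and the transcription factor genes Irf4 and Pparg. They were taken by symbol from the 23420 gene rows of the deposited count table, and each symbol matched a row. The libraries are bulk RNA-seq of macrophages sorted from the nucleated bone marrow cells of mice on a C57BL/6J background (strain entered as C57BL/6). A total of 6 libraries came from tibias treated with mesenchymal stromal cells (MSCs), whose cells the labels name MSC-educated macrophages, and 6 from untreated femurs, and each bone of mouse 7 and of mouse 19 gave 3 libraries. The mouse numbers were read from the library titles. The study asked how MSCs educate macrophages in leukaemic bone marrow, from its title. The sources used here give neither the age of the mice, nor their leukaemia status, nor the source, dose and timing of the MSCs.

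The treated bones were all tibias and the untreated ones all femurs, so the effects of treatment and of bone cannot be told apart. The labels do not say that the 3 libraries of a bone were separate sorts, so p-values over libraries measure the spread between libraries, which may be technical. The same comparison was therefore also made on counts summed per mouse and bone. In bulk RNA, fewer cells of a type and less RNA per cell cannot be told apart.

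IL-4 binds a receptor chain encoded by Il4ra, which pairs with the common gamma chain (Il2rg) on blood cells or with the chain encoded by Il13ra1, and the second pair also binds IL-13. JAK kinases on these chains phosphorylate STAT6, which enters the nucleus and, in macrophages, raises genes such as Arg1, Irf4 and Pparg. IL-10 binds a receptor of IL10RA, which is specific to IL-10, and IL10RB, which is shared with related cytokines. Its signal runs through JAK1, TYK2 and STAT3 and restrains the production of inflammatory cytokines.

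Library totals ran from 9773455 to 14869150 counts, and 11806 genes with enough counts were tested, all 8 pathway genes among them. Values are CPM, counts scaled to the size of each library. Small counts were mostly even, so a fragment was taken as 2 counts, and a library without a count still allows 3 fragments, which are 6 counts or 0.404 to 0.617 CPM. All 12 macrophage markers examined were tested, among them Csf1r (783 to 1128 CPM over the libraries), Emr1, which encodes F4/80 (240 to 365 CPM), and Lyz2. Granulocyte genes were abundant as well. The summed level of 12 of them was 18475 to 19641 CPM in the tibia and 17453 to 19155 CPM in the femur of mouse 7, and 29715 to 32142 CPM in the tibia and 26288 to 30255 CPM in the femur of mouse 19. Of these 12 genes 7 were higher and 1 was lower in the tibia, and their part in the results below was not tested.

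The sequence just before the RefSeq start site (GRCm38.p6, plus strand) is shown for Il4ra, Irf4 and Pparg, the genes that changed over both mice. The 250 bases before the start of Il4ra held ATGNAAAT, an octamer-like motif, in 3 places, and 12 of 32851 promoters of the same length (0.0365%) held it that often. They begin 139, 67 and 34 bases before the start site, and the stretches around them lie at chr7:125552122-125552149, chr7:125552194-125552221 and chr7:125552227-125552254. GENCODE vM21 starts Il4ra earlier, at chr7:125552120, so all 3 stretches lie inside the gene as annotated there. Capitals mark the motif, which was chosen after the sequence had been seen.
Il4ra, 139 bases before: ggggtggggcATGCAAATaagccagcga
Il4ra, 67 bases before: ggggcggggcATGTAAATgaccgtgcac
Il4ra, 34 bases before: ggggcgtcgcATGTAAATaagggacacc

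The 250 bases before the Irf4 start site (chr13:30748983-30749232) held a TATA box motif, TATAAA, 26 bases before the start, marked in capitals. It occurs in 12.4% of all promoters, counted on either strand and anywhere in the 250 bases. It also stood on the minus strand 29 bases before the Pparg start at chr6:115362349.
Irf4: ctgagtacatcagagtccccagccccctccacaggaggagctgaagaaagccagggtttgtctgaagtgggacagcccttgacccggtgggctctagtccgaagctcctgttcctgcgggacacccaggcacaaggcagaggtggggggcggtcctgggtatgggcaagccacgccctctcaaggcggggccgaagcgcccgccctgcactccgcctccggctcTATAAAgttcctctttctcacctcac

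Pparg has 3 start sites among the RefSeq promoters searched, and the counts do not say which was used. The nuclear receptor half-site AGGTCA, in capitals, stood 28 bases before the first start (chr6:115361104-115361133) and 9 bases before another (chr6:115362328-115362348). Both stretches lie inside Pparg as GENCODE vM21 annotates it, from chr6:115360951. The half-site was searched on both strands. It occurs in 14% of promoters and also stood 169 bases before the start of Stat6.
Pparg, first start: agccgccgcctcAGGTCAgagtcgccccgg
Pparg, another start: agggacgcgaggAGGTCAaga

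RefSeq entries of 250 bases were matched for 5 of the 8 genes, as 7 entries, and searched on both strands. The STAT6-type motif TTCNNNNGAA, which 5.85% of promoters hold, was in none of the 7 windows. The general STAT motif TTCNNNGAA (7.02% of promoters), the composite GGAANNGAAA that IRF4 can bind with PU.1 (2.3%) and the PPAR-type repeat AGGTCANAGGTCA (0.0335%) were in none of them either. Il10, Il10ra and Il10rb had no entry in the promoter set used here, which says nothing of RefSeq as a whole. These are matches of letters in a short window and say nothing of binding.

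Compared per kilobase of exon, Stat6 had the highest level of the 8 genes, at 87.2 CPM per kilobase over the 12 libraries (range 82.9 to 92.9). Il10ra followed at 73.4 (59.6 to 91.1) and Il13ra1 at 50.3 (40.8 to 62.2). Il4ra stood at 33.0 (24.5 to 37.8) and Il10rb at 23.2 (20.8 to 25.4). The transcription factor genes were far lower, with Pparg at 5.05 (3.64 to 6.36) and Irf4 at 2.88 (2.32 to 3.65), and Il10 itself was lowest at 0.818 (0.223 to 1.65). The libraries of Stat6 and Il10ra overlapped, as did those of Il10ra and Il13ra1, of Il4ra and Il10rb, and of Pparg and Irf4, whereas Il13ra1 and Il4ra, Il10rb and Pparg, and Irf4 and Il10 did not. The libraries thus held transcripts of both chains of the IL-10 receptor and of every chain of both IL-4 receptors, with Il2rg at 45.4 CPM per kilobase.

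Over both mice, 1 of the 8 genes was higher in the MSC-treated tibia (Il4ra) and 2 were lower (Irf4 and Pparg), at an adjusted p under 0.05 in edgeR's quasi-likelihood test with the mouse as a term and Benjamini-Hochberg adjustment over all genes tested. Among all genes, 3.51% were higher and 3.69% lower. With so few members, a count of 1 or 2 against these shares carries little. The median log2 fold change of the 8 genes was −0.065, against −0.0021 over all tested genes. On sums per animal 0 of the 8 genes passed (0.551% of all genes did), with 1 higher and 2 lower at an unadjusted p under 0.05, and that comparison has 4 sums and 1 residual degree of freedom. Without the mouse as a term the adjusted p was 0.140 for Il4ra, 0.164 for Irf4 and 0.0811 for Pparg.

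**Figure D1:**
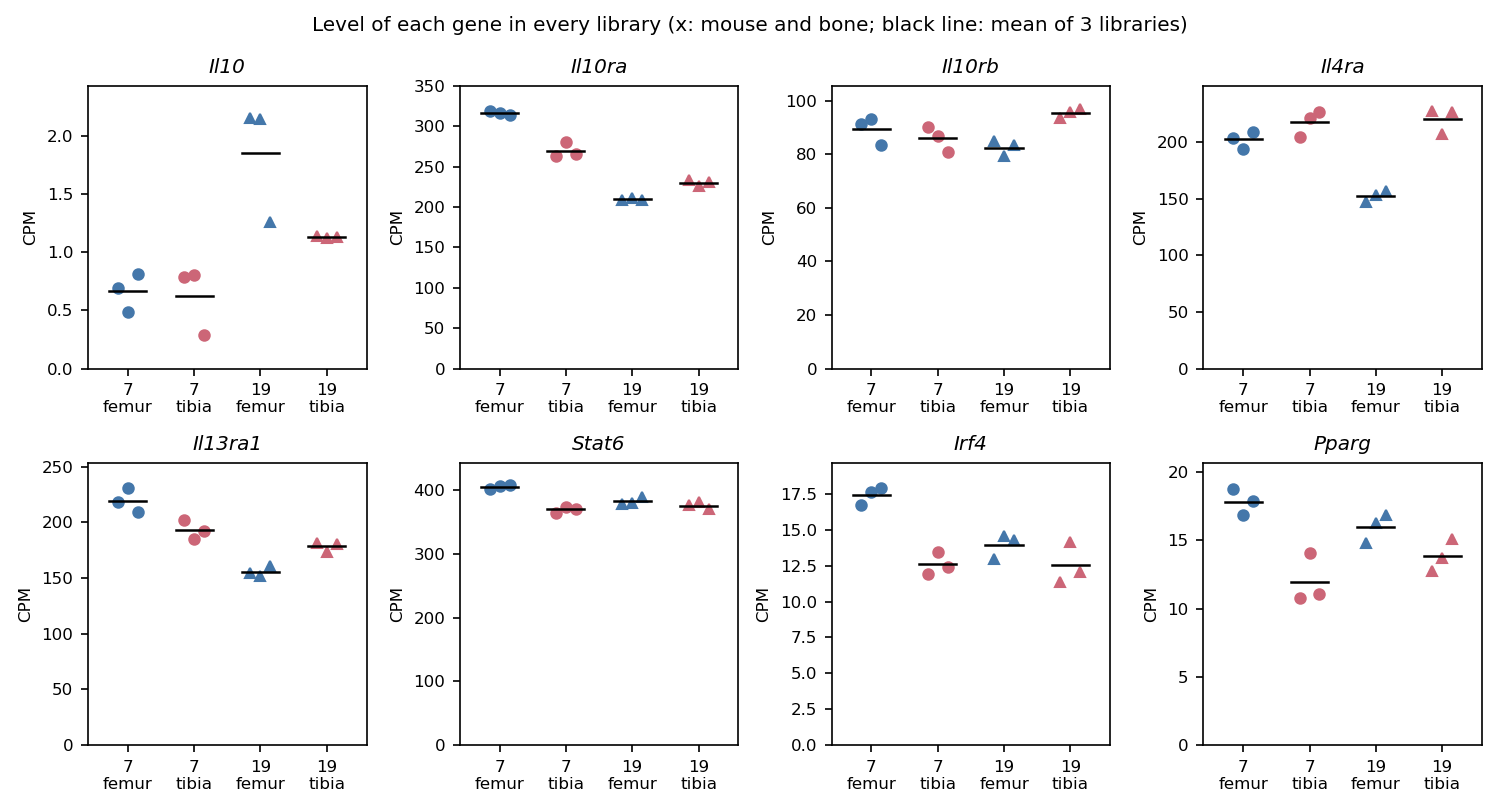
CPM (linear axes from 0) of each of the 8 genes in every library, by mouse and bone, with circles for mouse 7, triangles for mouse 19, blue for the untreated femur, red for the MSC-treated tibia and a black line at the mean of 3 libraries. Il4ra stands at 205 to 227 CPM in all 6 tibia libraries and at 147 to 156 CPM in the femur of mouse 19, while all 6 tibia libraries of Pparg lie below the femur mean of their own mouse.

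The cytokine genes themselves were barely expressed. Il10 (chr1:131019845-131024974, GRCm38 with GENCODE vM21 annotation, as for all genes below) had 4 to 27 counts in a library, 70 over the tibia and 91 over the femur libraries. In mouse 7 its level was 0.791, 0.802 and 0.292 CPM in the 3 tibia libraries and 0.693, 0.491 and 0.814 CPM in the femur. In mouse 19 it was 1.15, 1.12 and 1.13 CPM in the tibia and 2.16, 2.15 and 1.26 CPM in the femur. The tibia libraries of mouse 19 thus lay below all of its femur libraries, and those of mouse 7 overlapped. The log2 fold change was −0.46 ± 0.30 (approximate SE, 95% interval −1.14 to 0.23, adjusted p = 0.416), and the ratio of counts was 0.731 with an exact counting interval of 0.452 to 1.15, so a fall to less than 0.5 or no change could not be told apart at this depth.

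Il4 was scarce too, with 102 counts over the tibia libraries and 152 over the femur libraries. Its level was 0.73 to 2.25 CPM in the tibia and 0.962 to 2.92 CPM in the femur, with no tibia library above the femur mean of its mouse. The log2 fold change was −0.68 (95% interval −1.31 to −0.051), which did not pass after adjustment (adjusted p = 0.151), and the ratio of counts was 0.638 with a counting interval of 0.438 to 0.921. Il13 had 2 counts in each bone, and Il13ra2, which encodes a decoy receptor for IL-13, had 0 in all 12 libraries. Basophils and eosinophils are known makers of IL-4, and markers of both were present. The summed level of 10 basophil and mast cell genes was 109 to 118 CPM in the tibia and 120 to 127 CPM in the femur of mouse 7, and 124 to 144 against 116 to 160 CPM in mouse 19. Most of that sum was Hdc, with a mean of 75.4 CPM in the tibia and 82.9 CPM in the femur, whereas Mcpt8 had 7.69 and 8.34 CPM. None of the 9 basophil and mast cell genes that were tested passed, and only Tpsb2 was at 0 throughout. Their part in the low Il4 signal was not tested. Of 11 T cell genes 4 were tested and 0 passed, namely Lck, Cd4, Cd28 and Il7r, of which Il7r (361 counts) and Cd4 (250 counts) were above the floor in every library. The CD3 genes were lower, from 29 (Cd3e) to 69 counts (Cd3d). The summed T cell level was 4.89 to 6.27 CPM in the tibia and 6.58 to 10.1 CPM in the femur of mouse 7, and 7.35 to 9.80 against 8.49 to 10.7 CPM in mouse 19, none of the 11 was at 0 in all libraries, and their part was not tested.

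Il4ra (chr7:125552120-125579474) encodes the alpha chain through which both IL-4 receptors signal, and it was the one receptor gene that rose over both mice. The femur libraries of mouse 7 held 204, 194 and 209 CPM and its tibia libraries 205, 221 and 226 CPM. In mouse 19 the femur libraries held 147, 153 and 156 CPM and the tibia libraries 227, 207 and 227 CPM. The bones overlapped in mouse 7 and were apart in mouse 19. All 6 tibia libraries exceeded the femur mean of their mouse, and the log2 fold change was 0.31 ± 0.06 (adjusted p = 0.0011).

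The rise of Il4ra was unequal between the animals. It was 0.10 (adjusted p = 0.194) in mouse 7 and 0.53 (adjusted p = 4.6e-09) in mouse 19, and the difference of 0.43 ± 0.07 passed its own test (adjusted p = 1.3e-04). Tibia means were 217 ± 11.2 CPM in mouse 7 and 220 ± 11.4 CPM in mouse 19 (SD, n = 3 libraries), whereas femur means were 202 ± 7.66 and 152 ± 4.85 CPM. On sums per animal Il4ra changed by 0.32 with an adjusted p of 0.166, and in mouse 7 the removal of tibia library 2 (0.0175) or femur library 1 (0.0113), and in mouse 19 that of tibia library 1 (0.0439), made it pass there. An antisense gene, Gm44876, overlaps Il4ra, and with the strand setting of the counting not given its reads cannot be told apart.

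Il13ra1 (chrX:36112110-36171259), the partner chain that lets the receptor bind IL-13, changed in opposite directions in the animals. In mouse 7 it fell from 218, 231 and 209 CPM in the femur to 202, 185 and 192 CPM in the tibia. In mouse 19 it rose from 155, 152 and 160 CPM to 182, 174 and 180 CPM. The bones did not overlap in either mouse. The change was −0.18 in mouse 7 (adjusted p = 0.00978) and 0.20 in mouse 19 (adjusted p = 0.0105), the difference was 0.38 ± 0.07 (adjusted p = 4.2e-04), and over both mice the log2 fold change was 0.0031 ± 0.053 (95% interval −0.12 to 0.12). The call within mouse 7 was lost without its tibia library 2 (adjusted p = 0.0730) or femur library 2 (0.0888), and the call within mouse 19 without its tibia library 1 (0.0637), femur library 1 (0.0520) or femur library 2 (0.0716).

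Il2rg, the common gamma chain, followed the same course at 107 ± 9.02 CPM in the tibia and 110 ± 22.8 CPM in the femur (SD, n = 6 libraries). Its change was −0.19 in mouse 7 (adjusted p = 0.0122) and 0.15 in mouse 19 (adjusted p = 0.103), with a difference of 0.34 between them (adjusted p = 0.00347).

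Il10ra (chr9:45253837-45269149), the ligand-specific IL-10 receptor chain, also went opposite ways. In mouse 7 the femur held 319, 316 and 315 CPM and the tibia 264, 280 and 266 CPM. In mouse 19 the femur held 209, 211 and 209 CPM and the tibia 234, 226 and 231 CPM. The bones were apart in each mouse, and the levels of mouse 7 were above those of mouse 19 in both bones. The fall of 0.23 on the log2 scale in mouse 7 (adjusted p = 1.7e-04), the rise of 0.14 in mouse 19 (adjusted p = 0.0379) and the difference of 0.37 ± 0.06 (adjusted p = 6.7e-05) all passed, and the change over both mice was −0.050 ± 0.048 (95% interval −0.16 to 0.058). The call in mouse 19 was lost without its tibia library 1 (adjusted p = 0.153) or 3 (0.0638), without its femur library 1 (0.132), 2 (0.0925) or 3 (0.109), and without the first femur library of the other animal (0.0540). A pseudogene, Gm20612, and the miRNA gene Mir7086 overlap Il10ra.

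Il10rb (chr16:91406164-91425834), the chain shared with related cytokine receptors, passed in mouse 19 alone. Its femur levels were 91.5, 93.2 and 83.5 CPM in mouse 7 and 84.9, 79.3 and 83.4 CPM in mouse 19. Its tibia levels were 90.4, 86.7 and 81.1 CPM in mouse 7, within the femur range or just below it, and 93.7, 95.7 and 96.9 CPM in mouse 19, above all femur libraries of that animal. The rise of 0.21 in mouse 19 passed (adjusted p = 0.0286) and the change of −0.055 in mouse 7 did not (adjusted p = 0.622). The difference of 0.27 ± 0.08 had an adjusted p of 0.0585, and the call in mouse 19 was lost without any 1 of the 6 libraries of that mouse (adjusted p from 0.0535 to 0.141). A same-strand readthrough gene, Gm21970, overlaps Il10rb.

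The calls among the 8 genes were unlike in the animals. Within mouse 7, 0 of the 8 genes were higher and 5 were lower (Il10ra, Il13ra1, Stat6, Irf4 and Pparg), against 4.37% and 5.36% of all genes, with 1 higher at an unadjusted p under 0.05. Within mouse 19, 4 were higher (Il10ra, Il10rb, Il4ra and Il13ra1) and 0 were lower, against 2.96% and 2.21%, with 0 lower at an unadjusted p under 0.05 as well. The change was higher in mouse 19 than in mouse 7 for 3 of the 8 genes (Il10ra, Il4ra and Il13ra1) and lower for 0, against 2.89% and 1.85% of all genes. In mouse 7 the tibia libraries lay wholly above the femur libraries for 0 of the 8 genes and wholly below for 5 (12.2% and 14.4% of all genes), and in mouse 19 wholly above for 4 and below for 1, which was Il10 (10.8% and 10.3%). Il10ra and Il13ra1 passed in both mice with opposite signs, subject to the left-out libraries above, as did 58 of the 11806 genes (0.491%).

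Some macrophage identity genes moved as Il10ra and Il13ra1 did, and others did not. Csf1r, Emr1, Cx3cr1, Fcgr1, Ccr2, Itgam and Cd68 changed downward in mouse 7 and upward in mouse 19, though not all of these changes passed. Emr1 had −0.22 (adjusted p = 3.2e-04) and 0.12 (0.0741), and Fcgr1 −0.11 (0.271) and 0.49 (5.1e-06). Cd14 rose in both (0.36 and 0.33), and Ly6c2 had 0.066 and −0.14. The difference between the mice passed for 7 of the 12 markers. Csf1r changed by −0.14 in mouse 7 (adjusted p = 0.00708) and by 0.21 in mouse 19 (adjusted p = 1.9e-04). Mertk (0.80 and 1.24) and Aif1 (0.49 and 0.52) were called higher in the tibia of both mice. Lyz2 changed by −0.17 in mouse 7 (adjusted p = 1.8e-04) and by −0.060 in mouse 19 (adjusted p = 0.260). On sums per animal Mertk (adjusted p = 0.0163), Cd14 (0.0383) and Aif1 (0.0453) passed, and Csf1r did not (0.920). Of the 12 macrophage markers, 4 were lower and 2 higher in the tibia of mouse 7, and 6 were higher and 1 lower in the tibia of mouse 19. Lyz2 alone had a mean of 13380 CPM in the tibia and 14501 CPM in the femur, so it makes up most of their sum. The summed level of all 12 was 20289 to 21007 CPM in the tibia and 22344 to 22925 CPM in the femur of mouse 7, and 18961 to 19955 against 19311 to 19754 CPM in mouse 19, where the bones overlapped. None was at 0, and their part in the change of the receptor genes was not tested.

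**Figure D2:**
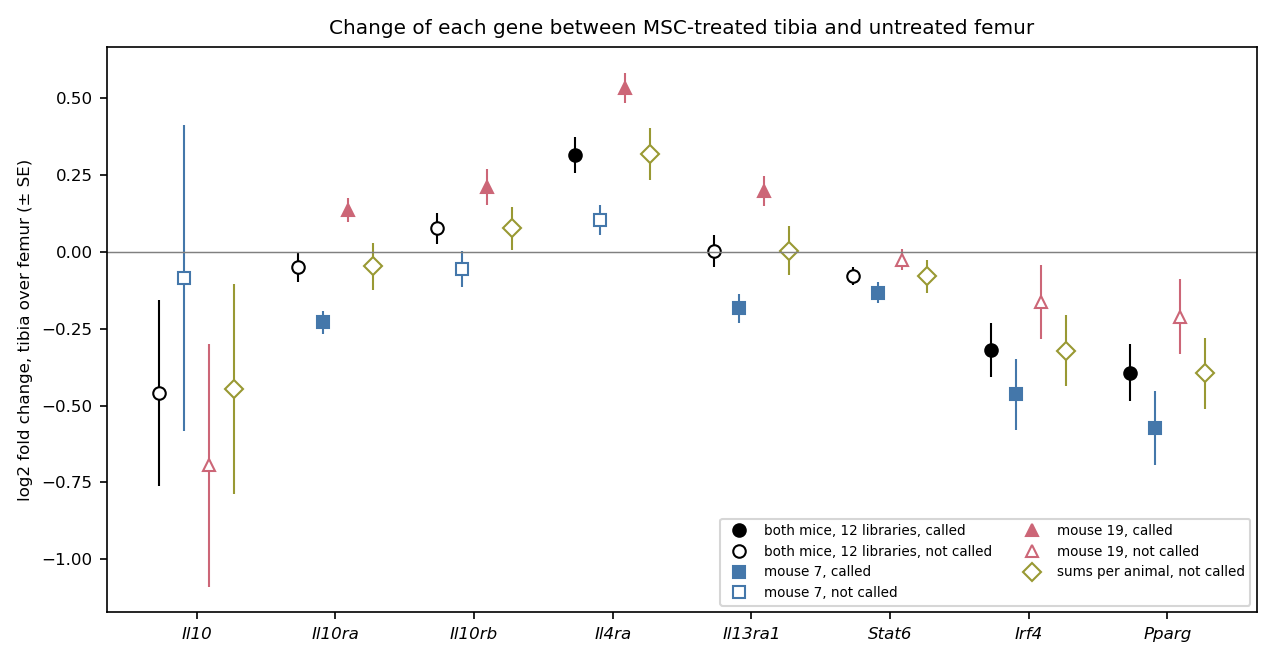
Log2 fold change (± approximate SE) of MSC-treated tibia over untreated femur for each gene, over both mice (black circles), within mouse 7 (blue squares), within mouse 19 (red triangles) and on sums per animal (olive diamonds), filled where the adjusted p is under 0.05. The triangles of Il10ra and Il13ra1 lie above 0 and the squares below it, and Il4ra reaches 0.53 in mouse 19 against 0.10 in mouse 7.

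Stat6 (chr10:127642986-127660957), the transducer of both IL-4 and IL-13, varied little between libraries. In mouse 7 the femur libraries held 403, 406 and 409 CPM and the tibia libraries 365, 375 and 371 CPM, with no overlap. In mouse 19 the femur held 379, 379 and 390 CPM and the tibia 377, 382 and 370 CPM, which overlapped. All 6 tibia libraries were below the femur mean of their mouse, and the log2 fold change was −0.079 ± 0.029 (95% interval −0.14 to −0.014, adjusted p = 0.0965), or −0.13 in mouse 7 (adjusted p = 0.0130) and −0.026 in mouse 19 (adjusted p = 0.785). DESeq2's Wald test put the adjusted p over both mice at 0.0424. Nab2 lies on the opposite strand and overlaps Stat6.

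Irf4 (chr13:30749226-30766976) encodes a transcription factor that IL-4 raises through STAT6, and that dendritic cells and plasma cells also use. Its femur libraries held 16.7, 17.6 and 17.9 CPM and its tibia libraries 11.9, 13.5 and 12.4 CPM in mouse 7. In mouse 19 the femur held 13.0, 14.6 and 14.3 CPM and the tibia 11.4, 14.1 and 12.04 CPM. The bones were apart in mouse 7 and overlapped in mouse 19. Irf4 fell by 0.32 ± 0.09 on the log2 scale (adjusted p = 0.0265), with 5 of 6 tibia libraries below the femur mean of their mouse. The change was −0.46 in mouse 7 (adjusted p = 0.00910) and −0.16 in mouse 19 (adjusted p = 0.541), a difference that did not pass (0.30 ± 0.17, adjusted p = 0.420).

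The call of Irf4 over both mice was lost without tibia library 1 (adjusted p = 0.0672) or 3 (0.0711) or femur library 1 (0.0502), 2 (0.0657) or 3 (0.0634) of mouse 7, or without tibia library 1 of mouse 19 (0.0507). On sums per animal its adjusted p was 0.356. Dendritic cell genes fell beside it: of 11, all tested, Flt3, Itgax and Cd209a were lower and 0 were higher. Itgax, which encodes CD11c, changed by −0.33 (adjusted p = 2.9e-05). The summed dendritic level was 127 to 132 CPM in the tibia and 168 to 172 CPM in the femur of mouse 7, and 127 to 144 against 150 to 155 CPM in mouse 19, and none of the 11 was at 0 in all libraries. Of 9 plasma cell genes, none of them at 0, 7 were tested, 1 of which was lower (Igj) and 0 higher. Igj fell from 21.5 CPM in the femur to 13.0 CPM in the tibia (log2 fold change −0.71, adjusted p = 0.0251, and 0.00965 on sums per animal). The summed level of the 9 was 376 to 394 against 389 to 397 CPM in mouse 7 and 355 to 385 against 345 to 360 CPM in mouse 19. Most of that sum was Xbp1, with a mean of 347 CPM in the tibia and 333 CPM in the femur. The part of these cells in the fall of Irf4 was not tested.

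Pparg (chr6:115360951-115490399) encodes a lipid-sensing nuclear receptor that IL-4 raises in macrophages and that fat cells need. In mouse 7 the femur libraries held 18.8, 16.8 and 17.9 CPM and the tibia libraries 10.8, 14.1 and 11.1 CPM. In mouse 19 the femur held 14.8, 16.3 and 16.8 CPM and the tibia 12.7, 13.7 and 15.1 CPM. The bones were apart in mouse 7 and overlapped in 1 tibia library in mouse 19. All 6 tibia libraries lay below the femur mean of their mouse, and Pparg fell by 0.39 ± 0.09 on the log2 scale (adjusted p = 0.00979). The change was −0.57 in mouse 7 (adjusted p = 0.00236) and −0.21 in mouse 19 (adjusted p = 0.403), and the difference of 0.36 ± 0.17 did not pass (adjusted p = 0.310). On sums per animal the adjusted p was 0.230.

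Of 6 fat cell genes, 1 was tested and did not pass, Adipor2, which encodes an adiponectin receptor that many cells express (185 CPM in the tibia and 188 CPM in the femur). The other 5 were at or near 0. Plin1 and Lep were at 0 in all 12 libraries, Adipoq had 24 counts, Cfd had 7 and Cidec had 2. Marrow stromal genes, 6 of 12 tested and 0 called, summed to 17.7 to 20.8 CPM in the tibia and 26.2 to 27.9 CPM in the femur of mouse 7 and to 17.2 to 19.7 against 17.1 to 19.2 CPM in mouse 19. The dendritic values above stand beside Pparg as well, and their part was not tested. An antisense gene, Gm44079, overlaps Pparg.

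The other genes of the IL-4 and IL-13 receptor arm (ligands, chains, kinases, phosphatases and inhibitors) changed little over both mice. Of 19 genes 16 were tested, Il4ra was the 1 that rose, 0 fell, and the median log2 fold change was −0.023. Within mouse 7, 4 of the 16 were lower and 0 higher, and within mouse 19, 3 were higher and 0 lower. Jak1, the kinase common to both cytokines, had −0.069 (adjusted p = 0.243), Jak3, which binds the common gamma chain, 0.088 (adjusted p = 0.347) and Tyk2 −0.094 (adjusted p = 0.0677). Socs1, an inhibitor that IL-4 induces, stood at 3.82 ± 0.668 CPM in the tibia and 3.14 ± 0.537 CPM in the femur (SD, n = 6 libraries, adjusted p = 0.369).

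Below the IL-10 receptor, Stat3 was level at 371 ± 16.3 CPM in the tibia and 368 ± 32.3 CPM in the femur (SD, n = 6 libraries, log2 fold change 0.014, 95% interval −0.055 to 0.084). Socs3, the feedback inhibitor that STAT3 induces, rose from 67.4 ± 17.1 to 93.7 ± 11.9 CPM. Its log2 fold change was 0.50 ± 0.11 (adjusted p = 0.00471), with all 6 tibia libraries above the femur mean of their mouse, 0.15 in mouse 7 and 0.87 in mouse 19. The median log2 fold change of the 8 genes of the IL-10 receptor arm was −0.059. Of 11 related ligands and receptors, 3 were tested and 0 called, and 5 were at 0 throughout (Il20, Il22, Il22ra1, Ifnl2 and Ifnl3).

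Of 13 genes that IL-10 is known to raise in macrophages, all tested, 3 rose (Socs3, Hmox1 and Il4ra itself), 0 fell, and the median was 0.12. Within mouse 7 0 of the 13 were higher (median 0.0096) and within mouse 19 4 were (median 0.15). In mouse 7 the adjusted p was 0.380 for Socs3 and 0.238 for Hmox1. Hmox1, which encodes the haem-degrading enzyme heme oxygenase 1, went from 133 ± 8.34 CPM in the femur to 167 ± 20.0 CPM in the tibia (log2 fold change 0.32, adjusted p = 0.00115). Of 16 tested regulators of Il10 transcription, 2 rose and 0 fell. They were Maf, a direct activator of Il10 in macrophages (0.58 ± 0.11, adjusted p = 0.00111), and Bhlhe40, a repressor of Il10 (0.33 ± 0.05, adjusted p = 5.0e-04). Maf changed by 0.21 in mouse 7 (adjusted p = 0.152) and by 1.01 in mouse 19 (adjusted p = 1.0e-08), whereas Bhlhe40 passed in both (0.23, adjusted p = 0.0408, and 0.42, adjusted p = 2.5e-04). The median of the 16 was −0.022. For sums per animal the adjusted p was 0.119 for Socs3, 0.178 for Hmox1, 0.122 for Maf and 0.106 for Bhlhe40.

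Genes that IL-4 raises through STAT6 moved in both directions. Of 28 tested of 33, 4 rose and 5 fell, with a median of −0.095. Arg1, which encodes arginase 1, stood at 18.3 to 48.9 CPM in the tibia libraries and at 0 to 0.491 CPM in the femur libraries, which is 2718 against 17 counts. It was called over both mice (adjusted p = 7.8e-17) and on sums per animal (adjusted p = 9.6e-08), and the fitted log2 fold change of 7.14 depends on the prior count because the femur is at the floor. Tgm2, a transglutaminase, rose from 22.7 ± 9.47 to 44.6 ± 5.23 CPM (1.01 ± 0.15, adjusted p = 1.7e-04), and Cdh1, E-cadherin, from 3.09 ± 0.575 to 5.05 ± 1.12 CPM (0.71 ± 0.16, adjusted p = 0.00803). Summed per animal, the adjusted p was 0.0732 for Tgm2 and 0.167 for Cdh1. Alox15, the 12/15-lipoxygenase gene, fell by 0.47 ± 0.05 on the log2 scale (adjusted p = 3.5e-06, and 0.00814 on sums per animal).

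Irf4 and Pparg belong to that list and are 2 of the 5 that fell, and the remaining called genes, named here after their values were seen, were Msr1, a scavenger receptor (0.29), and, lower, Chi3l3, which encodes Ym1 (−0.19), and Clec7a, which encodes Dectin-1 (−0.11). Other textbook targets were near the floor in both bones: Retnla had 34 counts over the 12 libraries, Ccl17 had 5 and Ccl22 had 54. Some eosinophil genes moved beside the falling targets, with 3 of 8 lower over both mice (Il5ra, Ear1 and Ccr3), 0 higher and none at 0. Within mouse 7, however, the granule genes Epx (0.74, adjusted p = 0.00874) and Prg2 (0.57, adjusted p = 0.00118) were higher in the tibia, whereas in mouse 19 3 of the 8 were lower and 0 higher. Their summed level was 157 to 215 CPM in the tibia and 170 to 184 CPM in the femur of mouse 7, and 316 to 389 against 424 to 496 CPM in mouse 19, and their part was not tested.

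Partners of PPARG fell or did not pass. Of 14 tested of 17, 7 fell and 0 rose, and the median was −0.14. Rxra, the nuclear receptor with which PPARG pairs on DNA, fell by 0.24 ± 0.05 on the log2 scale (adjusted p = 0.00289), from 73.2 ± 3.66 to 62.1 ± 3.68 CPM, with 6 of 6 tibia libraries below the femur mean of their mouse. The coactivator gene Ncoa1 fell by 0.17 (adjusted p = 0.0112). On sums per animal 0 of the 14 passed, with Rxra at an adjusted p of 0.197.

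Targets of PPARG did not follow it as a group: of 18 tested of 20, 3 rose, 1 fell, and the median was −0.037. Abca1, the cholesterol exporter, rose by 0.68 ± 0.16 (adjusted p = 0.00803), from 25.4 to 27.6 CPM in mouse 7 and from 9.15 to 24.9 CPM in mouse 19, with an adjusted p of 0.242 on sums per animal. Plin2, which coats lipid droplets, rose by 0.18 (adjusted p = 0.0307) and Tgm2 is also of this list. Lpl, lipoprotein lipase, fell by 0.19 on the log2 scale (adjusted p = 0.0278). The call of Plin2 was lost on removal of any of 7 libraries (adjusted p up to 0.0818) and that of Lpl on removal of any of 6 (up to 0.0853). Of 21 members of the IRF family and binding partners of IRF4, all tested, 1 fell and 0 rose, and the median was −0.067. It was Ikzf3, the lymphoid factor Aiolos (−0.40 ± 0.10, adjusted p = 0.0107). Irf8, the relative of Irf4 that macrophages and dendritic cells need, had −0.10 over both mice (adjusted p = 0.184), with 0.052 in mouse 7 and −0.25 in mouse 19 (adjusted p = 1.0e-04).

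**Figure D3:**
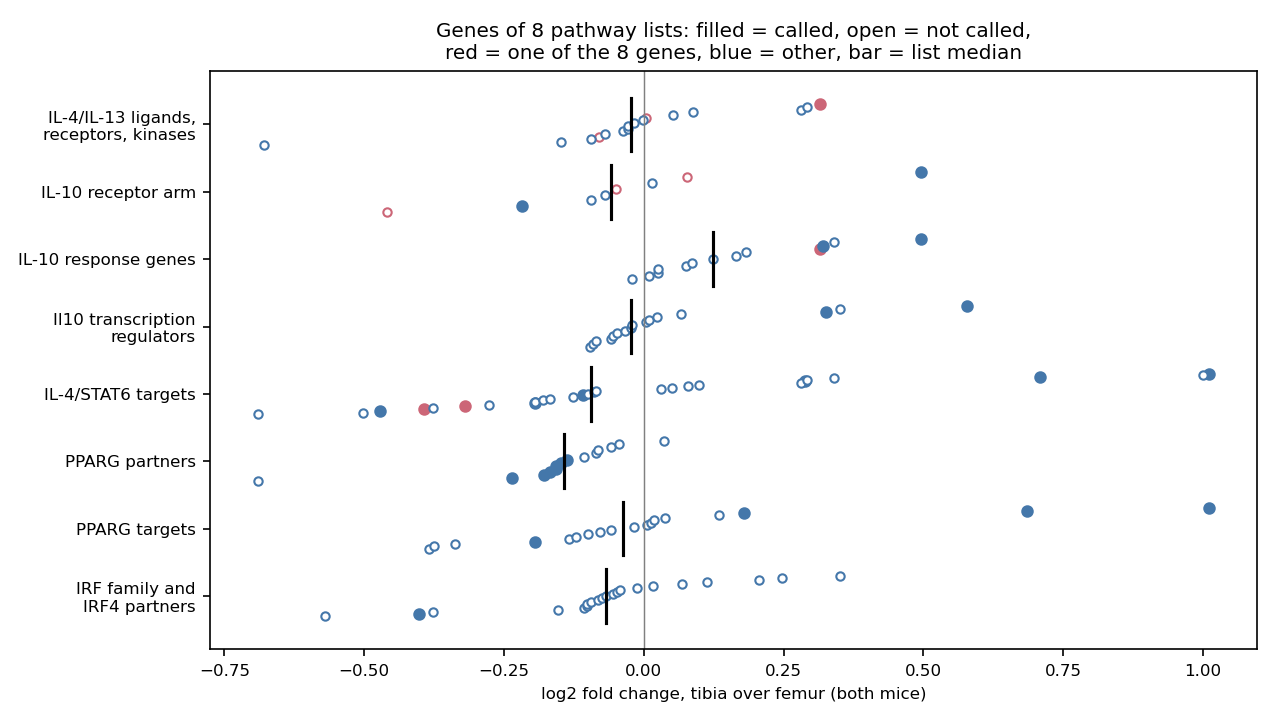
Log2 fold change of tibia over femur, over both mice, for each tested gene of 8 pathway lists, filled where the adjusted p is under 0.05, with the 8 genes in red, others in blue and a bar at each list's median. Arg1, at 7.14, is beyond the axis; the medians lie between −0.14 (PPARG partners) and 0.12 (IL-10 response genes).

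The genes whose levels ran most closely with each of the 8 were found by Pearson correlation of log2(CPM + 0.5) over the 12 libraries after subtracting each mouse's mean, among tested genes with a mean of at least 5 CPM. The libraries share animals and bones, so these values are descriptions. Il4ra ran closest to Hmox1 (r = 0.964), Nxpe5 (0.963) and the lysosomal protease gene Lgmn (0.962). Il10ra ran closest to Clec4a1 (0.971), the TNF receptor gene Tnfrsf1b (0.965) and the interferon regulator Irf7 (0.958), and Il13ra1 to Ace (0.967), Ifi204 (0.962) and Plek (0.958). For Il10rb the values were lower, with Abcg3 (0.909), Med21 (0.909) and Hrh2 (0.903).

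Stat6, Irf4 and Pparg ran together: r was 0.930 between Irf4 and Stat6, 0.892 between Irf4 and Pparg and 0.873 between Stat6 and Pparg, and Stat6 was the gene closest to Irf4 of 9552 candidates. The next for Irf4 were Wfdc17 (0.924) and Idua (0.924). Stat6 itself ran closest to the retinoic acid receptor gene Rara (0.952), Ceacam1 (0.947) and Parp4 (0.947), and Pparg to Tmcc1 (0.934), Lmtk2 (0.929) and Gabbr1 (0.919). Il10, with its few counts, ran closest to Mef2d (0.886), C030006K11Rik (0.880) and Tdrd3 (0.878). Il4ra was negatively related to all 3 genes of the first group, with r from −0.447 (Irf4) to −0.325 (Stat6), and to Il10 (−0.646). Only each mouse's mean was subtracted, so the difference between the bones reported above is part of every r.

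**Figure D4:**
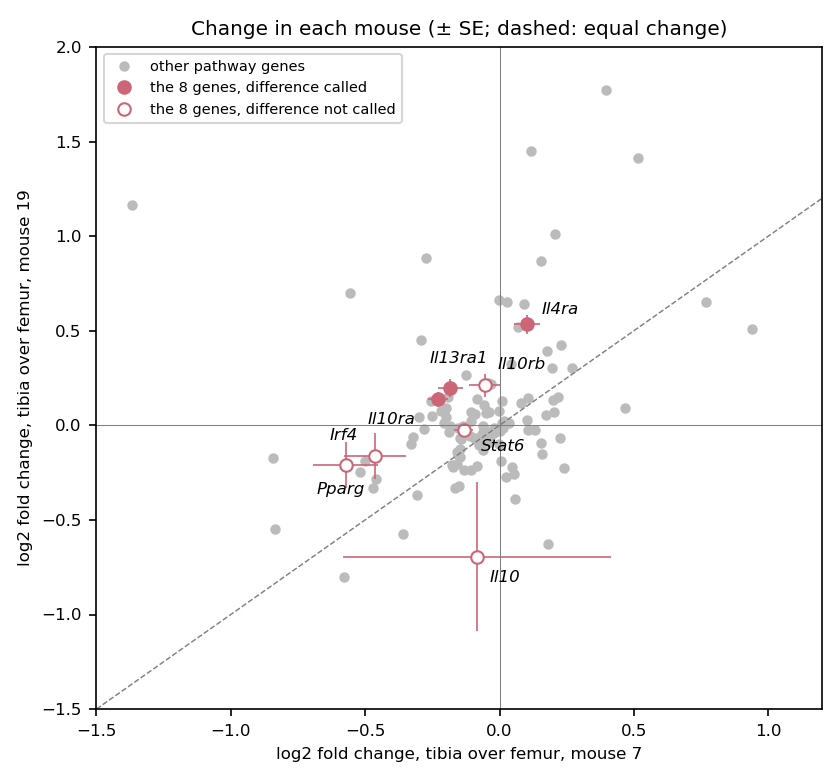
Log2 fold change of tibia over femur in mouse 7 (x) against mouse 19 (y), for the 8 genes (± approximate SE, filled where the difference between the mice passed) and the other tested genes of the pathway lists (grey), with equal change along the dashed line. Il4ra, Il10ra and Il13ra1 lie above the line by 0.43, 0.37 and 0.38; Arg1 is beyond the axes.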

How the data were processed

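The deposited file holds 1 column of raw read counts per gene and library, whole numbers that the authors did not scale as far as the values show. The submitters' processing notes name bcl2fastq, HISAT2, featureCounts, Subread, DESeq2 and the build mm10, and the sources used here give no versions, settings or strand handling. All 12 columns were matched to samples by title. The 8 genes, and the pathway and marker lists beside them, were chosen with earlier results of these data known.

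The tests were those of edgeR 4.0.16 in R 4.3.3 (TMM, filterByExpr with a minimum count of 10, glmQLFit and glmQLFTest, two-sided, Benjamini-Hochberg adjustment over 11806 genes). The mouse was read from the number in the library titles and was a term, with both bones of a number taken as the same animal. Contrasts within each mouse and their difference were taken from a fit of 4 means, 1 for each bone of each mouse. Approximate SEs were obtained from the change and the root of the F value, and 95% intervals use 9 residual degrees of freedom. Library numbers did not pair tibia with femur libraries: the correlation of deviations was −0.063 to 0.012 over 6 pairs. Libraries of 1 bone and mouse differed beyond sampling noise (2.72 to 6.17 chi-square units per gene on raw counts). Sampling noise alone gives about 1 unit if counts are independent, and about 2 if each fragment is 2 counts. Among counts of 1 to 10, 69.8% were even, so counting intervals and floors used fragments as 2 counts. Reads are not independent molecules, so these cover counting error only.

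Genes named beside the 8 are a set chosen by role, and from each list the 3 highest and 3 lowest changes among called genes with 1 sign in both mice. Some genes that this rule takes are not reported here. Alternatives were other scalings, filters and tests (DESeq2 1.42.0, limma 3.58.1 voom), no mouse term, a replicate block, counts divided by 2 (added after seeing the data) and each library left out in turn. The fits were also run on simulated counts, with an outcome not reported here. Both mice were given the same change there, so that run says nothing of the spread between animals. Exon lengths and positions come from GENCODE vM21 and promoters from RefSeq.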

Additional observations from a re-analysis of the deposited data

Results flagged for a closer look

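The genes named here each had a change between tibia and femur that differed between the mice in edgeR's test of the difference itself (mouse 19 minus mouse 7, on the log2 scale), which rests on 1 animal each. Among the 8 genes these were Il10ra (0.366, adjusted p = 6.7e-05), Il4ra (0.430, adjusted p = 1.3e-04) and Il13ra1 (0.381, adjusted p = 4.2e-04). Il2rg differed by 0.340 (adjusted p = 0.00347), so every chain of both IL-4 receptors rose more, or fell less, in mouse 19.

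Among the other named genes, Socs3 differed by 0.715, Hmox1 by 0.449, Maf by 0.803 and Plin2 by 0.284 (adjusted p = 0.0257). The largest of these differences were those of Tgm2, 1.38 (adjusted p = 1.5e-08), and Abca1, 1.33 (adjusted p = 3.6e-06). Irf8 alone of these went the other way, with −0.307 (adjusted p = 9.6e-04). In all genes 2.89% had a higher and 1.85% a lower change in mouse 19.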

How the results depend on the processing

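The number of the 8 genes called over both mice (1 higher, 2 lower) was 0 and 0 without the mouse term, where all genes fell from 414 higher and 436 lower to 50 and 24. With the replicate block 1 was lower, Irf4 being lost (adjusted p = 0.0565), and all genes gave 239 and 256, and Il10ra lost its call within mouse 19 (0.0609). Library numbers do not pair the samples, and 1 of 6 tibia libraries correlated best with its own number. Leaving out 1 library gave 1 to 2 lower, 1 to 4 higher within mouse 19, 0 to 1 higher on sums per animal, and 284 to 498 higher and 279 to 490 lower among all genes. DESeq2 added Stat6. Of 1123 recomputed gene values 1046 kept direction and side, 55 lost the call, 7 gained it and 15 reversed. Il13ra1 over both mice reversed with limma voom (−0.0061), without the mouse term (−0.014) and in the range without 1 library (−0.027 to 0.041, on sums −0.0080 to 0.028), as did Il10 in mouse 7 (−0.31 to 0.26) and Il2rg (−0.059 to 9.0e-04), none of which was called. The cause was not tested. Of 32 named genes tested 19 were called, 16 of which kept the call without any 1 library, 16 lost it without the mouse term and 2 with the block. RLE and upper quartile scaling moved the median of all genes to −0.0036 and 0.0020. Depth limits Il10, Il4 and Il13, which had few counts.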
